A study of Mus musculus with 6 samples.

Results

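The genes described here are 38 genes of the cell cycle and of DNA replication, measured in mouse ear skin. They were chosen by name: every non-control probe of the array whose gene name was on the list was taken. The older name Cdc2a was accepted for Cdk1. No measured value entered this rule, but the list was drawn up with earlier results of these data known. This gave 51 of 39429 probes, and all 38 genes were among the 23675 genes that could be tested. They fall into 13 genes of S phase, when DNA is copied, 23 genes of mitosis and the end of the cycle, and 2 genes of G1 control, Ccnd1 and Cdkn1a. The study hybridised total RNA of ear skin to 6 one-colour arrays, 1 for each of 6 mice. The 3 wild-type (WT) mice were NC16A sufficient and the 3 knockout (KO) mice were NC16A deficient, with age and sex matched per the design text. The sources used here name no age, strain, litter or treatment. NC16A is a non-collagenous stretch of BP180, a collagen of hemidesmosomes, the structures by which basal keratinocytes hold to the dermis. The question was how far cell cycle transcripts differed between WT and KO ear skin, and whether S phase genes differed otherwise than mitosis genes.

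A cell enters the cycle when cyclin D and cyclin E kinases inactivate the retinoblastoma protein and free the E2F factors, which turn on the genes of DNA replication. The genes of mitosis come later, through promoters that carry a CCAAT box and a cell cycle homology region (CHR), which are bound by NF-Y and by complexes of the MuvB core with B-Myb or FoxM1. In skin most cycling cells are keratinocytes of the basal epidermis and of the growing hair follicle, where matrix cells divide fast. The transcripts of both phases are scarce in resting cells, so they are used as a measure of cycling cells in a tissue.

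Well above background were 72.6% to 78.2% of an array's spots, and 50 of the 51 probes of the 38 genes were so on all 6 arrays. The 51st, a second probe of Ccne1, missed this on KO 7 alone. Every KO array was dimmer than every WT array before scaling, with a median processed signal of 368 to 404 against 445 to 573. WT 1, WT 2, WT 3 and KO 1 lay on 1 slide (slide 1), and KO 2 and KO 7 lay on another (slide 2). Slide 2 held no WT array, so with slide as a fixed block the difference is the same value as on slide 1 alone, KO 1 minus the WT mean. Calls kept or lost under that block therefore rest on 1 KO mouse and are no separate check. Signals are given as log2 after scaling each array to its own 75th percentile, so 0 marks that percentile. Differences are KO minus WT, given with the standard error (SE) of the limma fit, from 3 mice per group. The spread behind each p-value is that between mice, moderated by limma with that of the other genes. In KO it also holds any difference between the slides, which the main fit does not model. With KO 2 and KO 7 alone on slide 2, a slide effect would also shift each KO minus WT difference. In those differences, slide and group cannot be fully told apart. Col17a1, the gene of BP180, differed by -0.13 ± 0.14 (limma adjusted p = 0.58). Which part of it is missing in KO is not stated in the labels, so this probe checks no label. All 11 basal keratinocyte markers of the list used here passed the filter on dim probes.

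Promoters of S phase and mitosis genes are known for the motifs named above, and some members show them plainly. The windows below come from RefSeq on GRCm38.p6. They reach from 250 bases before to 50 bases after a gene's start site and are written 5′ to 3′ on the gene's strand, with the motif matches in capitals. Cdk1, the kinase that drives entry into mitosis, and Cdc20, which starts chromosome separation, stand for mitosis. Mcm3, a subunit of the replicative helicase, stands for S phase.
Cdk1 (chr10:69352863-69353162, minus strand): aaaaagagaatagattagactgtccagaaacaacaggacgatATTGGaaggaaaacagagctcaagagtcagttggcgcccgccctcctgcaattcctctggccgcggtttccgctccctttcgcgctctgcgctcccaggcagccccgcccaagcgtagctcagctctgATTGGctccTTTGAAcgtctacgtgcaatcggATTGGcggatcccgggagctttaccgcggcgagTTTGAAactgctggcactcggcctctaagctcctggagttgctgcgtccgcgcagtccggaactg
Cdc20 (chr4:118437294-118437593, minus strand): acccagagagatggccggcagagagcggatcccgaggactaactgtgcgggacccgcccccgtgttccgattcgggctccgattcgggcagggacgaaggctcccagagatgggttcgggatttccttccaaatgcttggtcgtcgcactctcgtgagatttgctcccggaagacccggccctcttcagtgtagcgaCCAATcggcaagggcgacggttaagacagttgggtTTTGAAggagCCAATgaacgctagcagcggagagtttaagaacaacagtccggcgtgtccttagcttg
Mcm3 (chr1:20820263-20820562, minus strand): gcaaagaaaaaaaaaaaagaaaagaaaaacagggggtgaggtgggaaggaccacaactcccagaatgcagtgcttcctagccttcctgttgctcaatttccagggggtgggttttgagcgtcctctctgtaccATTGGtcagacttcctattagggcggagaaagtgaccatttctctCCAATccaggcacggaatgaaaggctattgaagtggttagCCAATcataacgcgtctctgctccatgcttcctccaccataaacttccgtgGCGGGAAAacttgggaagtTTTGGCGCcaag
In the Cdk1 window the CHR letters TTTGAA begin at bases -71 and -15 from the start site, and the CCAAT box is read on the other strand (ATTGG) at -208, -80 and -48. In Cdc20 a single TTTGAA at -18 stands between CCAAT boxes at -53 and -8. Mcm3 has no TTTGAA, has CCAAT letters at -117, -72 and -32, and holds the E2F letters TTTCCCGC (other strand, as GCGGGAAA) at 19 and TTTGGCGC at 38. Matches of different motifs do not overlap in these windows.

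Over all members the motifs were spread unevenly between the groups. Of the 38 genes, 31 had an entry, in 33 windows. Ccne2, Tpx2, Ccna2, Aurkb, Ccnd1, Kif20a and Mcm4 had none. On either strand, TTTGAA was present in 15 of 20 mitosis windows (75%, 14 genes) and in 1 of 11 S phase windows (9.09%, Mcm2), against 17.9% of all 32851 windows. CCAAT was present in 18 of 20 mitosis windows (90%) and in 7 of 11 S phase windows (63.6%), against 37.4% of all. The E2F letters TTTGGCGC or TTTCCCGC were in 4 of 11 S phase windows (36.4%, those of Mcm3, Mcm5, Mcm6 and Cdc6) and in 0 of 20 mitosis windows, against 1.57% of all. None of the 3 motifs was in either window of Cdkn1a. A match is a description of these letters, and neither a match nor its absence shows whether a factor binds.

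None of the 38 genes passed the test in either direction. At a limma adjusted p under 0.05, 0 rose and 0 fell, while 2.37% of all 23675 genes passed (1.98% higher and 0.389% lower in KO). When arrays were scaled by their median instead, 389 genes passed as higher and 149 as lower, against 468 and 92 here, and still 0 of the 38. The lowest adjusted p among the members was 0.15. At an unadjusted p under 0.05 there was 1 gene of 38, Tyms, against 26.6% of all genes. In the fitted means 20 members were higher and 18 lower in KO, with a median difference of 0.0084, against 0.054 over all genes. In a whole tissue, a lower signal from fewer cycling cells cannot be told apart from less RNA per cell, and the same holds for a higher one.

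The differences were small as well as uncalled. They ran from -0.46 for Cenpf to 0.43 for Cenpe, and all 38 lay within 0.5 of zero, as did 72.9% of all genes. Cenpf, Ccne2 and Aurkb were the dimmest members, and their values depended on the background correction. With normexp background (offset 50) their differences were -0.03, 0.13 and -0.04. The SE of a member ranged from 0.13 to 0.50 with a median of 0.20, close to the 0.18 of all genes. For 33 of 38 members the 95% confidence interval lay wholly within a 2-fold change in either direction, and for 14 within 1.5-fold. A 2-fold rise lay outside the interval for 37 members, all but Cenpe. A 2-fold fall lay outside it for 34, all but Ccne2, Aurkb, Cenpf and Nusap1.

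**Figure D1:**
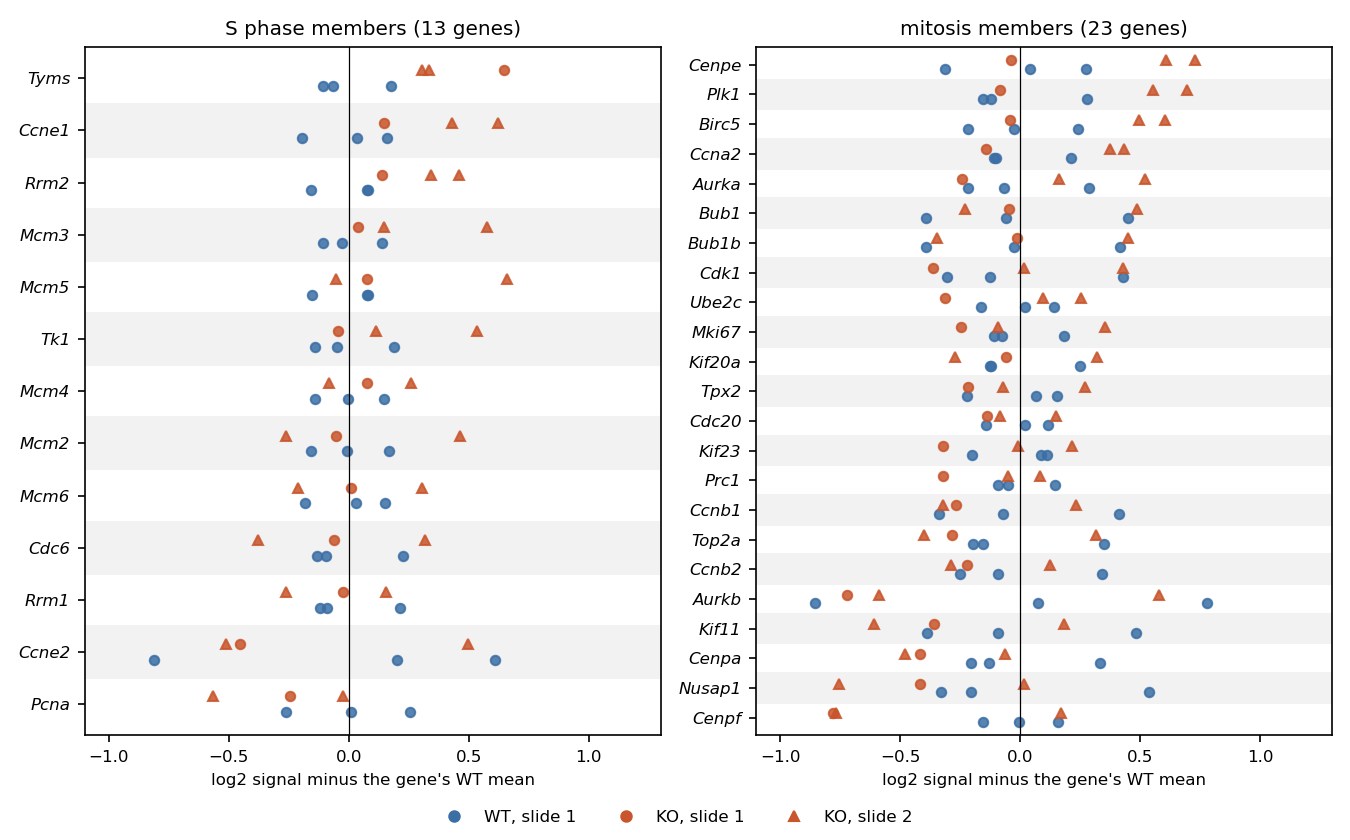
Each point is 1 array, plotted as its log2 signal minus the gene's WT mean for the 13 S phase members (left) and the 23 mitosis members (right). Colour gives the group and shape the slide. The KO points lie wholly above the WT points for Tyms and Rrm2 and overlap them for the other genes.

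The S phase members that prepare and run the replication fork showed little difference. The Mcm2, Mcm3, Mcm4, Mcm5 and Mcm6 proteins are subunits of the ring helicase that opens the DNA. Mcm3 read 2.16, 1.99 and 1.92 in WT 1, 2 and 3 against 2.06, 2.60 and 2.17 in KO 1, 2 and 7. KO 2 alone was high and the other KO arrays lay among or just above the WT arrays, giving a difference of 0.25 ± 0.18 (adjusted p = 0.38). The other 4 helicase genes differed by 0.03 (Mcm6), 0.05 (Mcm2), 0.08 (Mcm4) and 0.23 (Mcm5), and each had its highest KO value in KO 2. Mcm2, for example, read 0.19, 0.02 and -0.13 in WT 1, 2 and 3 against -0.03, 0.49 and -0.23 in KO 1, 2 and 7, so that KO held both the highest and the lowest array. Cdc6, which loads the helicase onto origins, differed by -0.04 ± 0.21.

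Pcna, which encodes the clamp that holds the polymerase on DNA, was the S phase gene with the lowest difference. It read 3.36, 3.11 and 2.84 in WT 1, 2 and 3 against 2.86, 3.08 and 2.53 in KO 1, 2 and 7. The lowest array was a KO array and the highest a WT array, but the groups overlapped, and the difference of -0.28 ± 0.20 did not pass (adjusted p = 0.39). On slide 1 alone, which sets KO 1 against the WT arrays, it was -0.24.

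The genes that supply deoxynucleotides gave both members whose groups did not overlap. Tyms encodes thymidylate synthase, which makes dTMP, and its probe lies at chr5:30385578-30385637 (mm9, minus strand). It read -3.88, -4.16 and -4.12 in WT 1, 2 and 3 against -3.40, -3.72 and -3.75 in KO 1, 2 and 7. Every KO array was above every WT array, with KO 1 the highest, and the difference was 0.43 ± 0.16, or 1.04-fold to 1.74-fold at 95% confidence. This was the member with the smallest p (unadjusted p = 0.030 in limma), and it did not pass (adjusted p = 0.15). Slide 1 alone gave 0.65, and the fits without 1 array gave 0.32 to 0.52.

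Rrm2, the small subunit of ribonucleotide reductase whose level rises in S phase, read 1.20, 1.21 and 0.97 in WT 1, 2 and 3. In KO 1, 2 and 7 it read 1.27, 1.59 and 1.47, so all KO arrays were above all WT arrays, KO 1 by little. The difference was 0.32 ± 0.15 (adjusted p = 0.22), and 0.14 on slide 1 alone. Groups that did not overlap were found in 2 of 38 members, both with KO above WT, against 35.4% of all genes (21.4% with KO above). Rrm1, the large subunit, which is made through more of the cycle, differed by -0.04 ± 0.17 with overlapping groups. Tk1, the thymidine salvage kinase, differed by 0.20 ± 0.19, with KO 2 at 1.48 and the other KO arrays at 0.91 and 1.06 against 0.81 to 1.14 in WT.

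Neither cyclin E gene passed, and no test compared them. Their products, with Cdk2, take cells into S phase. Ccne1 read -0.76, -0.89 and -1.12 in WT 1, 2 and 3 against -0.78, -0.30 and -0.49 in KO 1, 2 and 7. The arrays of slide 2 were above all WT arrays and KO 1 was just below the highest of them, for a difference of 0.40 ± 0.17 (adjusted p = 0.20). Slide 1 alone gave 0.15. Ccne2 spread more than any other S phase gene in both groups, from -7.04 to -5.61 in WT and from -6.74 to -5.73 in KO, and its difference of -0.16 ± 0.43 had an interval from -1.19 to 0.87.

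Mki67, the gene of the proliferation antigen Ki-67, is shown by the sequence of 1 of its 2 probes because the gene is the usual tissue measure of cycling cells. The probe lies at chr7:142884764-142884823 (mm9, minus strand) and is given in lower case with no part marked.
Mki67 probe: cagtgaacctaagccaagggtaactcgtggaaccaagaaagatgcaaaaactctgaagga
This probe read 2.35, 2.11 and 2.19 in WT 1, 2 and 3 against 2.01, 2.74 and 2.35 in KO 1, 2 and 7, and its difference was 0.15 ± 0.21. The brighter Mki67 probe, used for the gene, gave 2.70, 2.40 and 2.44 in the WT mice and 2.27, 2.87 and 2.42 in the KO mice, in the same order. On both probes KO 1 was the lowest and KO 2 the highest of the 6 arrays, so the WT values lay inside the KO range. The gene's difference was 0.0049 ± 0.19, with an interval from -0.46 to 0.47 (adjusted p = 0.99). Top2a, the topoisomerase that untangles chromosomes before they separate, read -0.32, -0.83 and -0.87 in WT 1, 2 and 3 against -0.96, -0.36 and -1.07 in KO 1, 2 and 7. WT 1 and KO 2 were both high, the other 4 arrays low, and the difference was -0.12 ± 0.25.

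The mitotic cyclins and their kinase did not differ beyond their spread. Cdk1 read -0.01, -0.57 and -0.75 in WT 1, 2 and 3 against -0.81, -0.01 and -0.43 in KO 1, 2 and 7. WT 1 and KO 2 were nearly equal and the highest of their groups, and the difference was 0.03 ± 0.27. Ccnb1 and Ccnb2, the B cyclins that activate Cdk1, differed by -0.12 ± 0.25 and -0.13 ± 0.20. Ccna2, the A cyclin of S and G2 phase, read 0.63, 0.31 and 0.32 in WT 1, 2 and 3 against 0.28, 0.85 and 0.79 in KO 1, 2 and 7. Both slide 2 arrays were above the WT arrays and KO 1 was below them, and the difference of 0.22 ± 0.20 became -0.14 on slide 1 alone.

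Plk1, Birc5 and Cenpe were likewise high on slide 2 and had the largest positive differences of the mitosis group. Plk1, the polo kinase of mitotic entry, read 1.43, 0.99 and 1.02 in WT 1, 2 and 3 against 1.07, 1.84 and 1.70 in KO 1, 2 and 7. Birc5, survivin of the chromosomal passenger complex, gave 2.67, 2.41 and 2.21 in the WT mice and 2.39, 3.03 and 2.93 in the KO mice, in that order. In each, KO 1 lay within the WT range and the slide 2 arrays lay above it. Their differences were 0.39 ± 0.24 (adjusted p = 0.33) and 0.35 ± 0.22 (adjusted p = 0.32). Cenpe, a kinetochore motor, differed by 0.43 ± 0.25 (adjusted p = 0.30), with 0.75 and 0.63 on slide 2, -0.02 in KO 1 and -0.29 to 0.29 in WT. On slide 1 alone the values of these 3 genes were -0.08, -0.04 and -0.04.

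The other kinases and the checkpoint genes had overlapping groups. Aurka, the spindle pole kinase, differed by 0.15 ± 0.24, and Aurkb, the passenger kinase, by -0.24 ± 0.50. Aurkb had the widest spread of all 38 genes, with -4.44, -5.14 and -6.07 in WT 1, 2 and 3 against -5.94, -4.64 and -5.80 in KO 1, 2 and 7. Its values were high in WT 1 and KO 2 and low in WT 3, KO 1 and KO 7, and the interval from -1.44 to 0.95 leaves a 2-fold fall within it. Bub1 and Bub1b, which hold cells in metaphase until chromosomes are attached, differed by 0.07 ± 0.28 and 0.03 ± 0.28.

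The lowest differences of the mitosis group were in Cenpf, Nusap1, Cenpa and Kif11. Cenpf, a kinetochore protein of late G2 and mitosis, read -5.59, -5.74 and -5.43 in WT 1, 2 and 3 against -6.37, -5.42 and -6.36 in KO 1, 2 and 7. KO 1 and KO 7 were below all WT arrays while KO 2 matched the highest of them, and the difference was -0.46 ± 0.28 (adjusted p = 0.31). With normexp background it was -0.03. Nusap1, which bundles spindle microtubules, differed by -0.39 ± 0.29 (adjusted p = 0.41). Its signal of -0.19 in WT 1 stood apart from -0.93 and -1.05 in WT 2 and WT 3, against -1.14, -0.71 and -1.48 in KO 1, 2 and 7. Cenpa, the histone H3 variant of centromeres, differed by -0.32 ± 0.20, and Kif11, the motor that separates spindle poles, by -0.26 ± 0.29.

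The remaining genes of spindle, cytokinesis and mitotic exit lay close to zero. The kinesin Kif23 of the central spindle (-0.04 ± 0.18), Tpx2, which activates Aurora A (-0.0064 ± 0.18), and Prc1, which crosslinks midzone microtubules (-0.10 ± 0.16), all had overlapping groups. Kif20a, another kinesin of cytokinesis, had an interval from -0.48 to 0.47. Cdc20, which activates the anaphase promoting complex, read 1.95, 1.69 and 1.85 in WT 1, 2 and 3 against 1.70, 1.75 and 1.98 in KO 1, 2 and 7. It was the mitosis gene with the smallest SE, and its difference was -0.02 ± 0.14 with an interval from -0.37 to 0.32. Ube2c, the ubiquitin enzyme of that complex, differed by 0.01 ± 0.18.

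**Figure D2:**
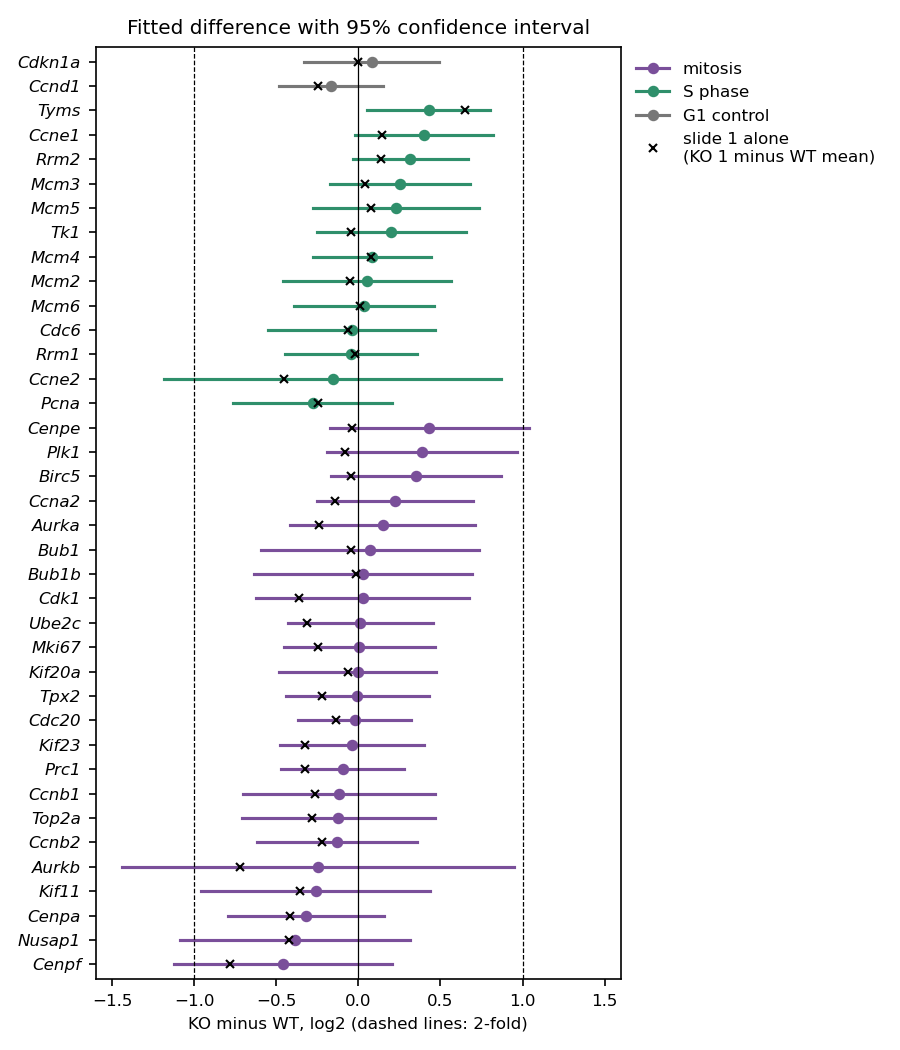
Dots give the fitted KO minus WT difference (log2) of each of the 38 genes and bars its 95% confidence interval, coloured by gene group; dashed lines mark a 2-fold change. Crosses give slide 1 alone (KO 1 minus the WT mean), and all 23 mitosis crosses lie below zero, from -0.78 to -0.01.

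The S phase and mitosis medians differed little with all arrays and more on slide 1. The median difference was 0.084 over the 13 S phase genes and -0.0064 over the 23 mitosis genes, against 0.054 over all genes. With the array median as the scale the 3 medians were -0.05, -0.14 and -0.08, so the sign of the S phase median depends on the scale. On slide 1 alone the S phase median was 0.01, the mitosis median -0.25 and that of all genes -0.0027. All 23 mitosis genes and 6 of 13 S phase genes were then below the WT mean, against 11930 of 23675 genes. KO 1 was below the lowest WT array in 11 of the 23 mitosis genes and in 0 of the 13 S phase genes, against 6157 of all 23675. With slide as a block 0 members passed, and the lowest adjusted p was 0.44 (Tyms).

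By array, the S phase median minus the mitosis median was -0.11, 0.11 and 0.05 in WT 1, 2 and 3 against 0.26, 0.15 and 0.01 in KO 1, 2 and 7. The groups overlapped, since KO 7 lay below WT 2 and WT 3. KO 1 gave the highest value and WT 1 the lowest. No test was made of this score, and genes of 1 group are not replicates of each other.

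Most members were highest in the same mice. Relative to the WT means, the mitosis median was 0.28, -0.12 and -0.19 in WT 1, 2 and 3 against -0.25, 0.32 and -0.09 in KO 1, 2 and 7. For the S phase genes the median was 0.17, -0.0073 and -0.14 in the WT mice and 0.01, 0.46 and -0.08 in the KO mice. WT 1 and KO 2 were thus the high arrays of their groups for both sets of genes. WT 1 was the highest WT array for 33 of 38 members, against 34.4% of all genes, and KO 2 the highest KO array for 34 of 38, against 24.6%. Both held for 31 of 38 members (81.6%), against 10.3% of all genes. The exceptions for WT 1 among the S phase and mitosis genes were Rrm2, Mcm5 and Cenpf, and those for KO 2 were Tyms and Cdc20, while Ccnd1 and Cdkn1a followed neither. These counts were made after the values were seen. WT 1 and KO 2 were also the arrays with the largest share of spots well above background in their groups (78.2% and 77.5%). WT 1 had the highest median signal of the WT arrays before scaling, and KO 1 that of the KO arrays. The part of these array properties in the pattern was not tested.

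**Figure D3:**
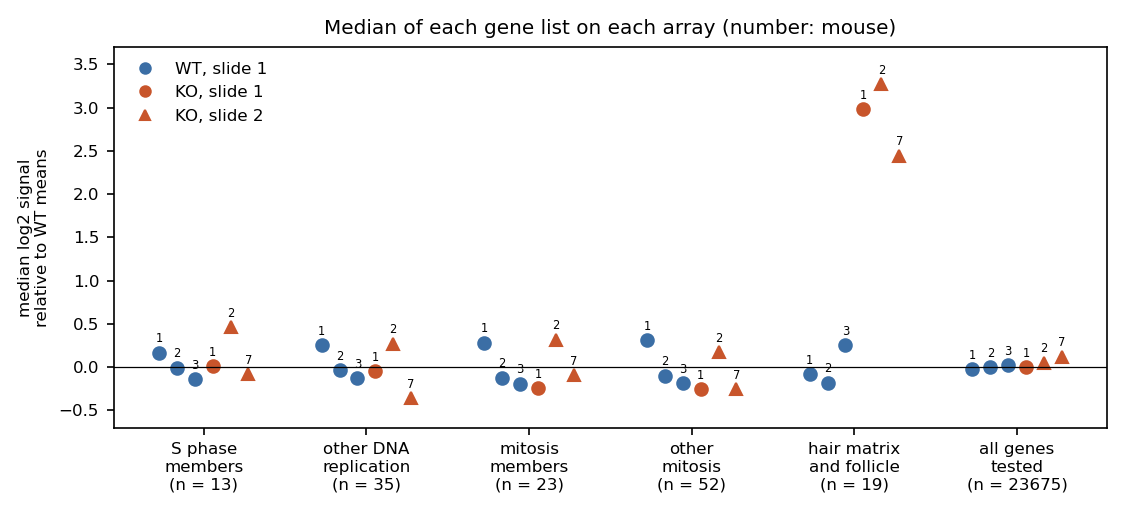
Each point is the median over a gene list of the log2 signal relative to each gene's WT mean, on 1 array, with the mouse number above it. The S phase and mitosis members and the other genes of both phases are highest in WT 1 and KO 2 within their groups. The medians of the hair matrix and follicle list separate KO (2.45 to 3.27) from WT (-0.18 to 0.26).

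The G1 members did not follow that pattern. Ccnd1, cyclin D1, which carries growth signals into the cycle, read 2.70, 2.55 and 2.82 in WT 1, 2 and 3 against 2.45, 2.53 and 2.60 in KO 1, 2 and 7. KO 1 and KO 2 were below all WT arrays and KO 7 lay among them, and the difference was -0.16 ± 0.13 (adjusted p = 0.44), or -0.25 on slide 1 alone. It had the smallest SE of the 38 genes, and its interval from -0.48 to 0.15 excludes a 1.5-fold change.

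Cdkn1a, the p21 inhibitor of cyclin kinases and a target of p53, gave different results on its 2 probes. The brighter probe, used for the gene, lies at chr17:29237377-29237436 (mm9, plus strand) and is listed with both RefSeq transcripts of the gene. The dimmer probe lies 9391 bases upstream at chr17:29227986-29228045 and is listed with only 1 of them. The first 30 bases of each are given in lower case, to show that the probes read different sequence.
Cdkn1a common probe: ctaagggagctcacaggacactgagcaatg
Cdkn1a upstream probe: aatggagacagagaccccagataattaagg
The common probe read 1.83, 2.09 and 2.36 in WT 1, 2 and 3 against 2.09, 2.11 and 2.31 in KO 1, 2 and 7. All KO arrays lay within the WT range, and the difference was 0.08 ± 0.17 with an interval from -0.33 to 0.49. The upstream probe read -4.21, -4.005 and -4.03 in the WT mice and -4.83, -5.22 and -5.41 in the KO mice. Every KO array was below every WT array, and the signal fell by 1.07 ± 0.18 on the log2 scale (2.10-fold lower, adjusted p = 0.041 with each probe tested alone). This was the 1 probe of 51 that passed, against 2.11% of all 29601 probes. With slide as a block the value was -0.75 (adjusted p = 0.38). The call was lost when WT 1, WT 2, WT 3, KO 2 or KO 7 was left out (values from -1.13 to -0.94, highest adjusted p = 0.17) and was kept without KO 1 (-1.23, adjusted p = 0.024). The table of promoter windows gives 2 start sites for Cdkn1a, 2790 bases apart, and does not pair them with transcripts. Whether the upstream probe is exonic in every transcript was not determined, since no mm9 annotation was used here.

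The 10 members with several probes had 23 probes in all, and in 6 of them (Ccnb1, Ccne1, Cdc6, Cdkn1a, Tpx2 and Ube2c) the probes differed in sign. Cdk1 showed it in another way. Of its 3 probes, those at chr10:68801072-68801131 and chr10:68801053-68801112 (mm9, minus strand) share 41 bases, and the third lies downstream at chr10:68799513-68799572. Their first 30 bases are shown because the downstream probe alone set KO apart.
Cdk1 probe used for the gene: ttcttaatttcctacgtataacttaattaa
Cdk1 overlapping probe: aacttaattaacatgtaaatattattccat
Cdk1 downstream probe: atacactaaaaatttgggtagccaggaggt
The overlapping probes differed by 0.03 ± 0.27 and 0.06 ± 0.42. The downstream probe read -6.36, -6.22 and -6.72 in WT 1, 2 and 3 against -5.60, -5.71 and -5.51 in KO 1, 2 and 7. The 3 KO arrays lay close together, above every WT array. The difference of 0.82 ± 0.17 did not pass (adjusted p = 0.063), and on slide 1 alone it was 0.83. It did not pass in any of the 6 fits without 1 array either (highest adjusted p = 0.15).

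The probes of other genes also differed among themselves. The second Tpx2 probe was above all WT arrays in every KO mouse (0.49 ± 0.16, adjusted p = 0.13), while the probe used for the gene gave -0.0064. Fitted alone, the Ccne1 probes gave 0.40 ± 0.18 and -0.51 ± 0.32, the latter from the probe that was not above background on KO 7. Those of Ccnb1 gave 0.16, -0.12 and -0.62, and those of Birc5 gave 0.35, 0.24 and 0.04. Probes that share sequence gave like values, as with the Mcm3 probes, which overlap by 43 bases (0.25 and 0.22).

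**Figure D4:**
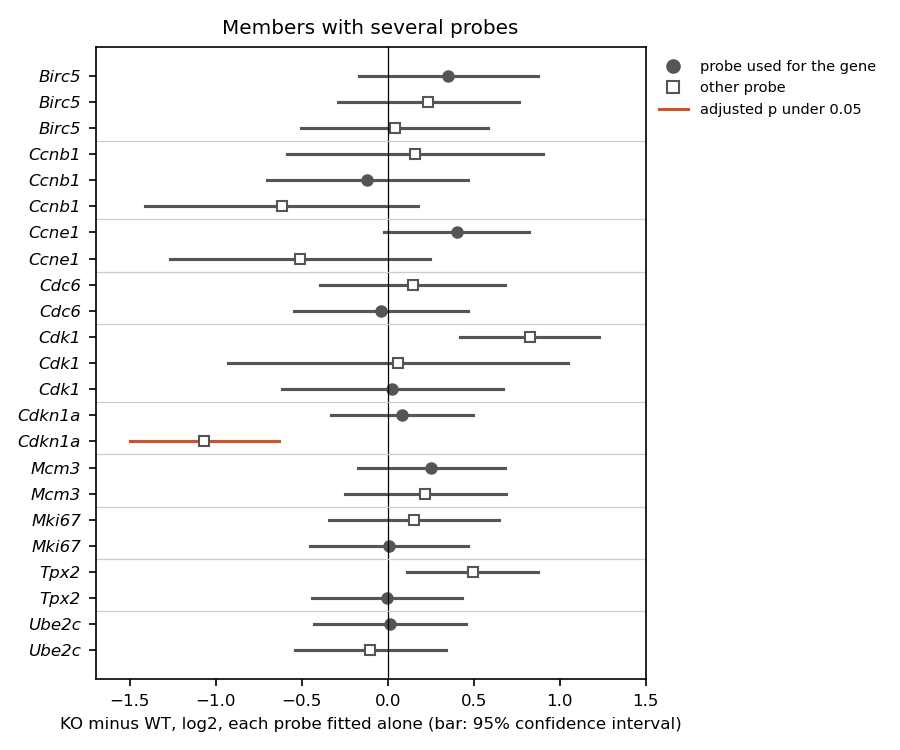
Each line is 1 probe of a member with several probes, with the KO minus WT difference (log2) and its 95% confidence interval; filled dots are the probes used for the gene and open squares the others. The upstream Cdkn1a probe at -1.07 is the 1 probe that passed, and the downstream Cdk1 probe at 0.82 stands apart from the other Cdk1 probes.

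Other genes of these pathways were taken from lists that do not include the 38. Of 35 other DNA replication genes, 0 rose and 0 fell, with differences from -0.64 to 0.76 and a median of 0.02, or -0.05 on slide 1 alone. Mcm10, which helps start replication forks, had the smallest p (0.66 ± 0.23, adjusted p = 0.15), followed by the DNA ligase Lig1 (0.37 ± 0.15, adjusted p = 0.18). Of 52 tested of 53 other mitosis genes, 0 rose and 0 fell, with differences from -0.96 to 0.73 and a median of -0.09, or -0.25 on slide 1 alone. Espl1, the separase that cuts cohesin (-0.72 ± 0.19, adjusted p = 0.092), and the checkpoint kinase Ttk (-0.96 ± 0.32, adjusted p = 0.14) had the smallest p. Their medians by array were again highest in WT 1 (0.25 and 0.31) and KO 2 (0.27 and 0.17) within the groups.

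Among 18 tested of 19 other G1 regulators 1 passed, Cdkn2a, which encodes the p16 inhibitor and the p19Arf protein from 1 locus. It read -6.70, -6.07 and -6.19 in WT 1, 2 and 3 against -4.84, -3.10 and -3.92 in KO 1, 2 and 7. Every KO array was above every WT array, and the signal rose by 2.37 ± 0.43 (5.16-fold, adjusted p = 0.049). Slide 1 alone gave 1.48, and the slide block an adjusted p of 0.38. The call was lost without WT 1, WT 2, WT 3, KO 2 or KO 7 (values from 1.94 to 2.49, highest adjusted p = 0.15) and kept without KO 1 (2.81, adjusted p = 0.018). It was also lost with the array median as the scale (adjusted p = 0.057), with quantile normalization (0.067) and without the filter on dim probes (0.094). With normexp background the value was 1.69 (adjusted p = 0.036). Whether the probe reads p16, p19Arf or both was not determined. The retinoblastoma gene Rb1 came next with -0.49 ± 0.17 (adjusted p = 0.15), and the list had a median of 0.07.

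Of 17 transcription factors of the cycle, 1 passed, Mybl2, which encodes B-Myb and is itself an E2F target. It read -1.40, -1.89 and -1.68 in WT 1, 2 and 3 against -0.81, -0.62 and -0.75 in KO 1, 2 and 7. All KO arrays were above all WT arrays, and the signal rose by 0.93 ± 0.16 (1.91-fold, adjusted p = 0.044), while the other Mybl2 probe gave 0.10 ± 0.24. The mean of both probes was 0.52 (adjusted p = 0.16). Slide 1 alone gave 0.85, and the slide block an adjusted p of 0.42. The call was lost without WT 2, WT 3, KO 1, KO 2 or KO 7 (values from 0.81 to 0.97, highest adjusted p = 0.16) and kept without WT 1 (1.06, adjusted p = 0.045). It was lost as well with the array median as the scale (adjusted p = 0.063) and without the filter on dim probes (0.089). E2f7, a repressor of E2F targets, had a difference of 0.94 ± 0.21 and did not pass (adjusted p = 0.070), and its other probe gave -0.05. The list had a median of -0.02, or -0.14 on slide 1 alone.

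Of 20 targets of p53 other than Cdkn1a, Trp53 itself included, 0 rose and 0 fell, with a median of 0.10. Pmaip1, the gene of the death protein Noxa (0.64 ± 0.18, adjusted p = 0.11), and Perp, a desmosome protein gene (0.43 ± 0.14, adjusted p = 0.13), had the smallest p.

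**Figure D5:**
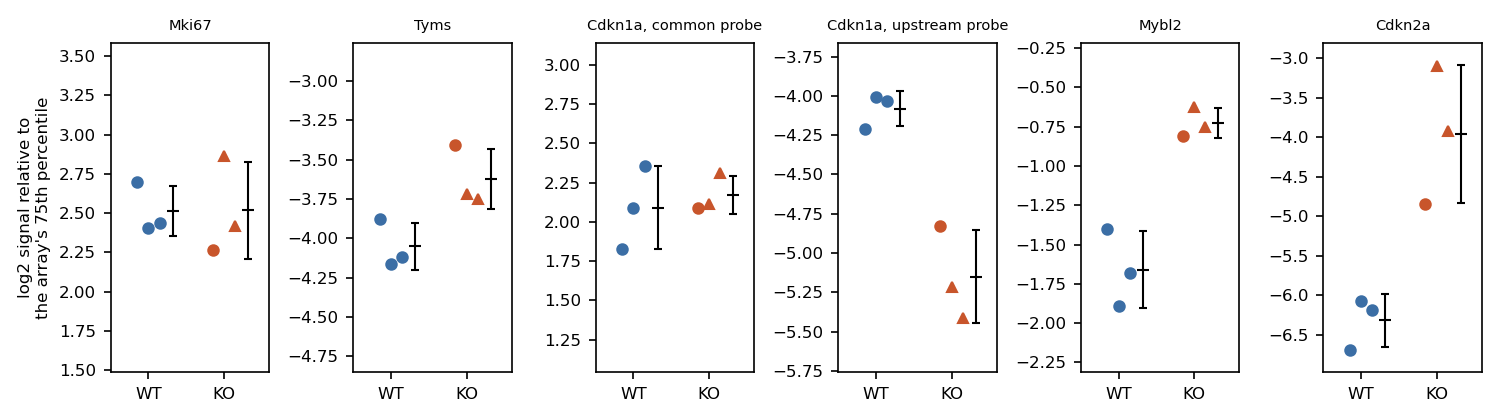
Scaled log2 signal (0 is the 75th percentile of an array) in each mouse, with the group mean and SD (n = 3), for Mki67, Tyms, both Cdkn1a probes, Mybl2 and Cdkn2a; circles are slide 1 and triangles slide 2, and every panel has its own vertical range. The groups overlap for Mki67 and the common Cdkn1a probe and are separate in the other 4 panels.

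Some genes of the hair and stress keratinocyte marker lists passed as higher in KO, and none of the basal keratinocyte list did. Of 19 tested of 20 hair matrix and follicle markers, 12 rose and 0 fell, and 8 of the list passed with slide as a block. The smallest p were those of Krt82 (3.21 ± 0.20), Krt35 (3.099 ± 0.22), Krt73 and Padi3, which passed with the block and without any 1 array. The list had a median of 3.099, and 2.98 on slide 1 alone, but 7 of its 19 tested genes did not pass and 3 were lower in KO. It joins keratins and other products of the hair shaft and root sheath with matrix factors, so it does not measure dividing matrix cells. The summed level of the list, in units of the array's 75th percentile, was 40.6 to 49.6 in WT and 102 to 160.3 in KO. Of 11 stress keratinocyte markers 5 rose (S100a8, S100a9, Areg, Krt16 and Krt17) and 0 fell, and 2 (S100a8 and S100a9) passed with slide as a block. Krt16 and Krt17 passed in 1 of the 6 fits without 1 array. Which cells of the whole skin gave the S100a8 and S100a9 signal was not determined. The stress list had a median of 2.34, but 6 of its 11 genes did not pass and 2 were lower in KO. Its summed level was 41.6 to 66.9 in WT and 222 to 389 in KO. Basal keratinocyte markers (11 genes, summed level 289 to 334 in WT and 366 to 396 in KO), in whose cells epidermal division takes place, had 0 that passed and a median of 0.10. None of the 38 cell cycle genes passed, against 2.37% of all genes, so this count does not set them apart from genes at large. The part of the cell makeup in the members' values was not tested.

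Immune and stromal markers gave further values of this kind. Of 10 tested of 11 neutrophil markers 1 rose (Cxcr2) and 0 fell, with 0 passing under the slide block, Cxcr2 passing in 3 of the 6 fits without 1 array, a median of 1.29 and summed levels of 8.87 to 9.45 in WT and 12.4 to 22.9 in KO. Of 12 tested of 14 T cell markers 2 rose (Icos and Cd6) and 0 fell, with a median of 0.46 and summed levels of 5.80 to 6.73 in WT and 6.75 to 10.9 in KO. With the slide block neither passed (adjusted p = 0.062 and 0.23), each passed in 2 of the 6 fits without 1 array, and the other Cd6 probe gave -0.04. Of 5 B cell, 10 macrophage, 7 endothelial, 8 fibroblast and 2 red cell precursor markers tested, 0 passed, with medians of 0.77, -0.13, 0.07, 0.36 and -0.31. The summed levels of these 5 lists in WT were 0.20 to 0.22, 28.9 to 31.5, 4.46 to 7.06, 269 to 313 and 0.45 to 0.52. In KO they were 0.28 to 0.45, 24.1 to 43.4, 6.66 to 9.98, 335 to 477 and 0.20 to 0.63. The part of these cells in the members' values was not tested.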

How the data were processed

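The authors deposited 1 scanner file per array, whose processed signal is an intensity made by Agilent Feature Extraction 10.7.3.1 (protocol GE1_107_Sep09, design 026655, mm9 probe positions), background-subtracted and not normalized between arrays, per the file headers. Outlier spots (170 to 249 of 43020 per array) were dropped, spots of a probe averaged, and log2 values scaled to the 75th percentile of each array. The filter kept 29601 probes, those well above background on 3 or more of the 6 arrays, and a gene was its kept probe with the highest mean. The fit was limma 3.58.1 in R 4.3.3 (lmFit, eBayes, two-sided, no covariate) with Benjamini-Hochberg adjustment over 23675 genes and a threshold of 0.05. Its code was run on simulated arrays with independent noise and no slide effect. That run says nothing of slide or of patterns shared between genes. Groups and mouse numbers come from the sample titles.

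The 38 genes, the gene lists and the rules were chosen with earlier results of these data known. Every member is named, and in each other list the passing genes (all where 5 or fewer passed, otherwise the 4 of smallest p), or, where fewer than 2 passed, the 2 genes of smallest p. Of the marker lists only genes that passed are named. Lists are described by counts and medians, with no test. Promoter windows and gene names come from RefSeq tables (GRCm38.p6). Alternatives covered background correction, scaling, the filter, the summary of probes, the deposited series matrix (intensity values equal to the processed signal), slide, replicate number and each array left out. Fits of each probe alone, and the alternatives for Mybl2 and Cdkn2a, were chosen after seeing the data. The number of arrays limits the precision. Figures used Python 3.11.15, pandas 2.3.3, numpy 2.4.6 and matplotlib 3.10.9.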

Additional observations from a re-analysis of the deposited data

How the results depend on the processing

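In each of 17 other fits, 0 of the 38 genes passed. At an adjusted p under 0.1 there were 0 with all arrays, and without KO 1 there was 1, Plk1 (0.62, adjusted p = 0.098), the lowest adjusted p of a member in any fit. The share of all genes under 0.1 was not counted, so these counts have no background beside them. At the threshold of 0.05, 717 of all genes rose and 254 fell without KO 1, against 468 and 92 with all arrays. The median of the S phase genes ranged from -0.05 (array median scaling) to 0.21 (without KO 7), and was -0.0036 to 0.21 over the fits without 1 array. The median of the mitosis genes ranged from -0.25 (slide as a fixed block) to 0.086 (without WT 1), and was -0.17 to 0.086 without 1 array. The S phase median minus the mitosis median was 0.09, became 0.26 with slide as a fixed block, and was 0.05 to 0.19 without 1 array. This gap between the medians was above zero in each fit, but not every fit could have changed it. Array median scaling shifts both medians alike, and so does the 75th percentile taken over probes above background on all arrays. Their value of 0.09 was thus fixed in advance. The fits without the filter and with the filter on all 6 arrays kept the same probes for the members, so their 0.09 was fixed too. The series matrix values, equal to the processed signal, also gave 0.09. The remaining fits drew on the same arrays, whose scores overlapped between WT and KO, so the shared sign is no separate check. The sign of the difference held in every fit for 10 genes (Ccnd1, Cenpa, Cenpf, Kif11, Mcm3, Mcm5, Nusap1, Pcna, Rrm2 and Tyms) and changed in at least 1 fit for 28. Of these, 13 changed with slide as a fixed block, where the value is KO 1 minus the WT mean, and 12 without WT 1. WT 1 was the highest WT array for 33 of 38 members, so leaving it out raises the difference of those 33. Why these arrays differed from the others was not tested. Scaling by the array median lowered each member's difference by the same amount (a shift of -0.14), so the 9 changes of sign there follow from the shift. Over all genes, 860 rose and 135 fell with normexp background, 269 and 27 without the filter, 158 and 10 with slide as a fixed block, 333 and 119 with quantile normalization, and 183 to 717 and 19 to 254 without 1 array.

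Replicate numbers 1 and 2 occur in both groups. With the replicate block, 0 members passed (lowest adjusted p = 0.25), the S phase median was 0.13 and the mitosis median -0.02, 0 of all genes rose or fell, and Cdkn2a and Mybl2 had adjusted p of 0.15 and 0.22. The deviations of same-numbered mice correlated at 0.083 (number 1) and 0.054 (number 2), and no label says that a number marks a litter or a day, so the mice share only a number. With slide as a random block Cdkn2a had an adjusted p of 0.055 and Mybl2 of 0.050.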
